A study of Mus musculus with 23 samples.

Results

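The 6 microRNAs (miRNAs) described here are miR-31-5p, miR-139-5p, both arms of miR-335 (miR-335-3p and miR-335-5p), miR-383-5p and miR-873a-5p, out of 1915 mature miRNA names counted in each library. They were picked by name because their level was high in wild type cortex, so their excess in wild type cortex is a description and carries no test. The data are small RNA read counts from dissected brain tissue of C57BL/6 mice, with 12 wild type libraries and 11 libraries of mice with the genotype Cdr1as knockout. Cerebellum, cortex, hippocampus and olfactory bulb were each sequenced in 3 wild type and 3 knockout libraries, except that knockout hippocampus had 2 libraries, numbered 2 and 3. The sources used here do not give the age or sex of the mice. The labels do not tie libraries to animals, so p-values measure the spread between these libraries, and 1 mouse may have given several regions.

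A miRNA gene inside an intron is usually transcribed with its host gene, and its hairpin is cut out of the primary transcript by Drosha and then by Dicer. The hairpin yields a 5p and a 3p arm, and the arm that is loaded into Argonaute silences messenger RNAs that pair with its seed, bases 2 to 8. Cdr1as is a circular RNA of neurons that binds miR-7. It is not counted in a table of miRNAs, so its loss could not be checked in these libraries.

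The members come from 5 precursors, since both arms of miR-335 are included. In the GENCODE M21 annotation of GRCm38, 5 of the 6 members lie in an intron of a protein-coding gene on the same strand. Mir873a (chr4:36668510-36668586, minus strand) lies in an intron of Lingo2, which encodes a leucine-rich repeat membrane protein of neurons. Mir383 lies in an intron of Sgcz on chromosome 8, the gene of zeta-sarcoglycan. Mir139 (chr7:101475376-101475443, plus strand) lies in an intron of Pde2a, which encodes a phosphodiesterase of cyclic nucleotides, and of the overlapping gene model Gm45837. Mir335 (chr6:30741299-30741396, plus strand) lies in an intron of Mest, an imprinted gene expressed from the paternal allele. Mir31 differs, since on this annotation it (chr4:88910557-88910662, minus strand) lies in an exon of the long non-coding RNA AL805899.1, and the nearest coding gene, the interferon gene Ifne, is 30356 bases away. A coding host gene was therefore found for 5 members and not for miR-31-5p. Host transcripts were not measured in these libraries.

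RefSeq (GRCm38.p6) gave a mature sequence for 5 of the 6 members, shown here 5′ to 3′ with the seed in capitals because the seed sets which messenger RNAs a miRNA can pair with.
miR-873a-5p: gCAGGAACuugugagucuccu
miR-139-5p: uCUACAGUgcacgugucuccag
miR-335-3p: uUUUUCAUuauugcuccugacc
miR-335-5p: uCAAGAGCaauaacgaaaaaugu
miR-31-5p: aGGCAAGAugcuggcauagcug

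None of these 5 members shared a seed with another. In the RefSeq table, miR-6370 shared the seed of miR-873a-5p, and it had 0 counts in all 23 libraries. The 98-base hairpin of Mir335 is shown with both mature arms in capitals, because it is the only precursor with both arms among the members, and the ratio of its arms differed between regions.
Mir335: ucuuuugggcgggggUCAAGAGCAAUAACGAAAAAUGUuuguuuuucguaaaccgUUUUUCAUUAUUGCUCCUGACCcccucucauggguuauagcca

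Library totals lay between 2328929 and 13070794 counts, the lowest being that of the third knockout cortex library, and a member had between 117 and 7427 counts in a library. All 6 members were among the 669 miRNAs kept by the filter on low counts. The 8 miRNAs of the olfactory bulb and sensory list (miR-200, miR-141, miR-429, miR-182, miR-183 and miR-96 species) summed to 219005 to 393987 normalised counts (CPM, counts scaled to the same library total) in olfactory bulb libraries and to at most 6803 CPM in any library of another region. The 4 neuronal markers (miR-124-3p, miR-9-5p, miR-128-3p and miR-138-5p) summed to 111257 to 217983 CPM over all libraries. The 6 members together took 0.285% to 0.325% of the reads of a cortex library, 0.153% to 0.206% in hippocampus, 0.0494% to 0.0627% in olfactory bulb and 0.0237% to 0.0404% in cerebellum. In bulk tissue, fewer cells of a type and less RNA per cell cannot be told apart.

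Levels in CPM also carry TMM library factors and are listed in the order of the replicate numbers. MiR-873a-5p, from the Lingo2 intron, was high in both cortex and hippocampus. In cortex it was at 729.8, 626 and 559 CPM in wild type and at 649, 571 and 646 CPM in knockout libraries. In hippocampus it was at 455, 447 and 493 CPM in wild type and at 446 and 516 CPM in knockout. All cortex libraries lay above all hippocampus libraries, by a narrow margin. Olfactory bulb libraries held 76.7, 98.1 and 97.5 CPM in wild type and 129.8, 77.9 and 72.9 CPM in knockout. Cerebellum libraries held 101.9, 64.6 and 65.9 CPM in wild type and 91.99, 59.8 and 64.7 CPM in knockout. The ranges of olfactory bulb and cerebellum overlapped, so their order is not set for this miRNA.

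MiR-383-5p, from the Sgcz intron, was high in cortex alone. Its cortex levels were 336, 348 and 320.0 CPM in wild type and 359.8, 303 and 346 CPM in knockout. In hippocampus they were 97.1, 98.1 and 132 CPM in wild type and 99.8 and 142 CPM in knockout. Olfactory bulb levels were 114, 132 and 108 CPM in wild type and 133, 128 and 94.1 CPM in knockout, overlapping those of hippocampus. Cerebellum levels were 70.5, 35.5 and 36.6 CPM in wild type and 70.3, 36.6 and 42.9 CPM in knockout. Replicate 1 was the highest cerebellum library of both genotypes for miR-383-5p, as it was for miR-873a-5p.

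MiR-139-5p, from the Pde2a intron, fell into 4 separate levels. Cortex libraries held 492, 558 and 592 CPM in wild type and 514, 596 and 666 CPM in knockout. Hippocampus libraries held 379.7, 411 and 408 CPM in wild type and 369 and 296 CPM in knockout. Next came olfactory bulb, at 198, 162 and 158 CPM in wild type and 177, 189 and 198 CPM in knockout. Cerebellum was lowest, with 60.2, 53.2 and 50.5 CPM in wild type and 61.4, 56.3 and 53.8 CPM in knockout. Within a genotype, the ranges of neighbouring regions did not overlap in any of the steps of this order.

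The arms of miR-335, from the Mest intron, followed different profiles. MiR-335-3p was at 369.6, 310.3 and 388 CPM in wild type cortex and at 318, 306 and 379.6 CPM in knockout cortex. In hippocampus it was at 123, 142 and 169.9 CPM in wild type and at 127 and 105 CPM in knockout. Olfactory bulb held 139.8, 148 and 146 CPM in wild type and 160.0, 129 and 105 CPM in knockout. Hippocampus and olfactory bulb overlapped for the 3p arm, and both lay well under cortex. Cerebellum held 67.3, 63.3 and 59.1 CPM in wild type and 60.4, 52.2 and 57.6 CPM in knockout.

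MiR-335-5p had the flattest profile of the members. It was at 301, 240.2 and 275 CPM in wild type cortex and at 259, 287 and 187 CPM in knockout cortex. In hippocampus it was at 145, 157 and 162 CPM in wild type and at 155 and 106 CPM in knockout. Olfactory bulb held 191, 203 and 145 CPM in wild type and 174, 221 and 113 CPM in knockout. In knockout libraries each region's range overlapped that of the next, and the lowest cortex library was below the highest olfactory bulb library. Cerebellum held 106, 113 and 81.6 CPM in wild type and 111, 106 and 95.6 CPM in knockout.

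MiR-31-5p, the member with a non-coding host, was also highest in cortex. Its values there were 174, 164 and 173 CPM in wild type and 185, 158 and 201 CPM in knockout. Hippocampus held 89.9, 88.9 and 92.6 CPM in wild type and 106 and 86.3 CPM in knockout. Olfactory bulb held 85.4, 86.7 and 78.1 CPM in wild type and 94.6, 78.1 and 76.6 CPM in knockout. These regions did not overlap in wild type but did in knockout. Cerebellum held 25.0, 19.9 and 19.8 CPM in wild type and 22.0, 20.7 and 21.9 CPM in knockout, the lowest levels of this miRNA.

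**Figure D1:**
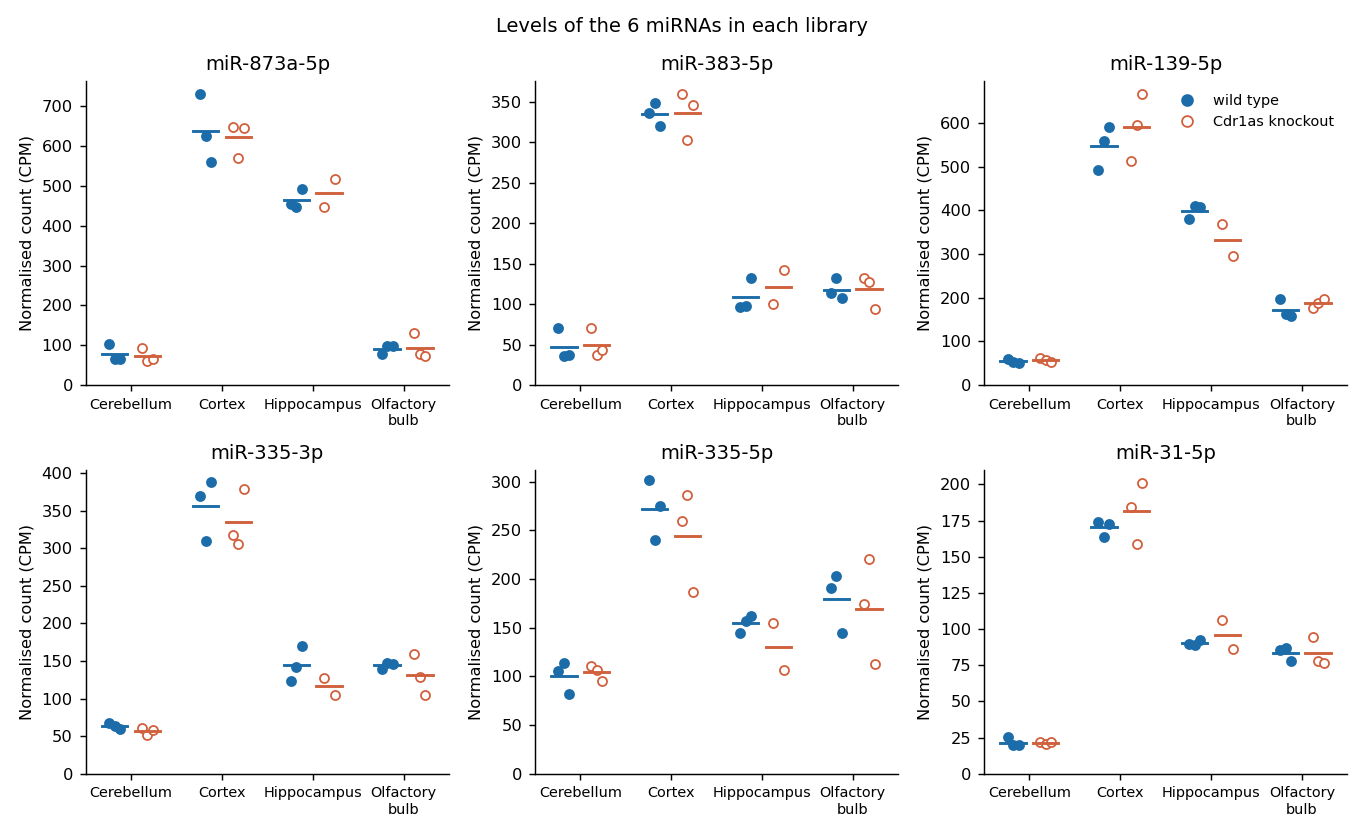
Level of each member in CPM (linear axis from 0, scaled per member) in 4 brain regions; each point is 1 library, filled for wild type and open for Cdr1as knockout, and short bars are group means. Cortex is highest and cerebellum lowest by group mean for all 6 members in both genotypes, and the hippocampus level is near the cortex level for miR-873a-5p but not for miR-383-5p.

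By group mean, cortex was first and cerebellum last for 6 of 6 members in both genotypes. The excess in wild type cortex is given as log2 differences from the mean of the other 3 wild type regions, ranked among the 669 miRNAs. The rule that chose the members does not state its measure. MiR-873a-5p stood at 2.11 (rank 7), miR-383-5p at 1.98 (rank 9) and miR-139-5p at 1.81 (rank 16). MiR-335-3p stood at 1.70 (rank 22), miR-31-5p at 1.64 (rank 25) and miR-335-5p at 0.95 (rank 76). The members are not an unbroken run of the top ranks, and 75 miRNAs, 5 of them members, ranked above miR-335-5p. Among the non-members ranked next to a member were miR-802-5p (2.23) above miR-873a-5p, miR-383-3p (2.02) and miR-409-5p (1.97) on either side of miR-383-5p, miR-128-1-5p (1.64) below miR-31-5p, and miR-485-5p (0.95) and miR-7220-5p (0.95) around miR-335-5p.

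The rule that chose the members names wild type cortex only, and in the knockout libraries all 6 were higher in cortex than the mean of the other 3 regions. The members were chosen with earlier results of the knockout libraries known, so these p-values are not a separate check of that choice. MiR-873a-5p was higher by 2.07 on the log2 scale (SE 0.16, quasi-likelihood F test of edgeR, Benjamini-Hochberg adjusted p = 3.40e-09). MiR-139-5p was higher by 1.95 (SE 0.10, edgeR adjusted p = 7.61e-12) and miR-383-5p by 1.91 (SE 0.19, edgeR adjusted p = 1.34e-07). MiR-335-3p was higher by 1.81 (SE 0.12, edgeR adjusted p = 1.86e-10) and miR-31-5p by 1.70 (SE 0.10, edgeR adjusted p = 4.83e-11). The smallest difference was 0.89 for miR-335-5p (SE 0.17, edgeR adjusted p = 0.000207). Of all 669 miRNAs, 23.2% were called higher in this comparison. The median difference was 1.86 over the members and -0.03 over all miRNAs tested. For 5 members every knockout cortex library exceeded every other knockout library, which held for 7.62% of all miRNAs. The exception was miR-335-5p.

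Region by region, the members differed in where the contrast with cortex was small. Against knockout cerebellum 6 of 6 were higher (30.2% of all miRNAs), by 3.37 for miR-139-5p, 3.11 for miR-873a-5p, 3.07 for miR-31-5p, 2.75 for miR-383-5p, 2.56 for miR-335-3p and 1.23 for miR-335-5p on the log2 scale. Some markers of other cells also differed between these regions, where 29.6% of all miRNAs were called lower in knockout cortex. Of the 3 red blood cell miRNAs, 1 was lower in knockout cortex, miR-486a-5p, which made up nearly all of their sum of 33984 to 38412 CPM in knockout cerebellum and 4312 to 5634 CPM in knockout cortex. Of the 6 choroid plexus miRNAs 3 were lower in knockout cortex and 3 did not pass, with sums of 10355 to 14222 CPM in cerebellum and 1961 to 3320 CPM in cortex. Of the 8 olfactory bulb and sensory miRNAs 5 were higher and 3 lower, of the 5 microglia and leukocyte miRNAs 2 were higher and 1 lower, and of the 4 oligodendrocyte miRNAs 1 was lower. Of the 4 neuronal miRNAs 2 were higher and 2 lower, and none of the 4 endothelial and mural miRNAs passed. The part of these miRNAs in the members' differences was not tested. Against knockout olfactory bulb 6 of 6 were higher (24.7% of all miRNAs), from 2.72 for miR-873a-5p to 0.52 for miR-335-5p (SE 0.21, edgeR adjusted p = 0.0452). Of all miRNAs, 26% were called lower in knockout cortex than in knockout olfactory bulb. There 8 of 8 olfactory bulb and sensory miRNAs were lower in knockout cortex, and of 6 choroid plexus miRNAs 3 were higher and 3 lower. Higher were 2 of 4 oligodendrocyte and 2 of 4 endothelial and mural miRNAs. Lower were 2 of 4 neuronal, 1 of 5 microglia and leukocyte and 1 of 3 red blood cell miRNAs. The part of these markers in the members' differences was not tested.

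Against knockout hippocampus the order of the members changed. There 5 of 6 members were higher in knockout cortex, where 7.62% of all miRNAs were called higher. The differences were 1.52 for miR-335-3p, 1.48 for miR-383-5p, 0.91 for miR-31-5p, 0.90 for miR-335-5p (SE 0.24, edgeR adjusted p = 0.0163) and 0.83 for miR-139-5p. MiR-873a-5p had a difference of 0.37 (SE 0.23, 95% interval -0.11 to 0.85, edgeR adjusted p = 0.356) and did not pass. Of the cell type markers, 3 of 8 olfactory bulb and sensory miRNAs and 1 of 4 neuronal miRNAs were higher in knockout cortex than in knockout hippocampus. No other marker passed there, and their part in the members' differences was not tested. The calls of miR-335-5p against hippocampus and olfactory bulb rested on single libraries. Its difference from hippocampus was 0.77 without cortex knockout replicate 2 (edgeR adjusted p = 0.0672) and 0.71 without hippocampus knockout replicate 3 (edgeR adjusted p = 0.262). Its difference from olfactory bulb was 0.48 (edgeR adjusted p = 0.103), 0.39 (adjusted p = 0.181), 0.54 (adjusted p = 0.0805) and 0.31 (adjusted p = 0.222) without cortex knockout replicates 1 and 2 and olfactory bulb knockout replicates 1 and 3, in that order.

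**Figure D2:**
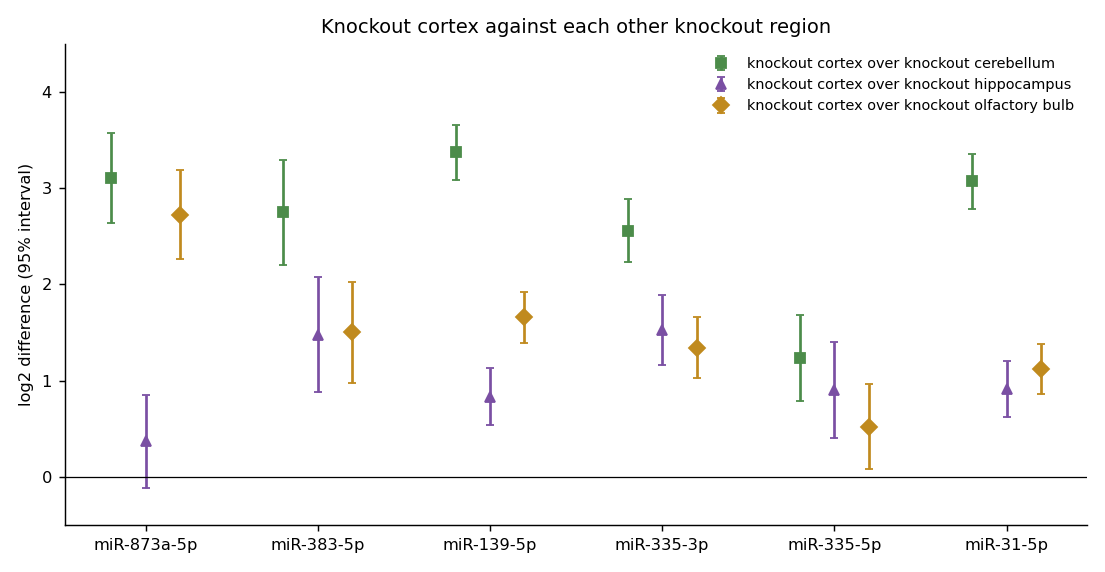
Log2 difference of knockout cortex from each other knockout region for the 6 members; points are edgeR estimates and bars 95% intervals, and the line at 0 marks equal levels. The interval of miR-873a-5p against hippocampus, -0.11 to 0.85, is the only one of the 18 that includes 0.

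The other arms of the member precursors were scarcer and also cortex-high. In knockout cortex against the mean of the other knockout regions, miR-873a-3p was higher by 2.07, miR-383-3p by 1.70, miR-139-3p by 1.52 and miR-31-3p by 1.21 on the log2 scale. MiR-876-5p, whose hairpin lies in the same Lingo2 gene as Mir873a, was higher by 1.91 (SE 0.76, edgeR adjusted p = 0.0330), on few reads. It had 39 counts in knockout hippocampus, 14 in knockout cortex and 2 and 1 in the remaining knockout regions. These are unscaled sums over libraries that differ in number and depth. Against knockout hippocampus alone the difference of miR-876-5p was negative, at -0.58, and did not pass. Its call against the mean of the other knockout regions was lost in 5 of 19 alternatives, with edgeR adjusted p of up to 0.256. The losses came without cerebellum knockout replicate 2 or 3, cortex knockout replicate 1 or olfactory bulb knockout replicate 1, and with a replicate block. All 5 of these tested miRNAs passed, against 23.2% of all miRNAs. The other arms come from the same hairpins as members chosen as high in wild type cortex, so this count is not separate support. Against hippocampus alone 1 of the 5 passed, miR-383-3p at 1.45 (edgeR adjusted p = 0.0298), and that call was lost without cortex knockout replicate 2 (1.49, adjusted p = 0.0700) or 3 (1.26, adjusted p = 0.0786) or hippocampus knockout replicate 2 (1.02, adjusted p = 0.261), without the filter (1.39, adjusted p = 0.0641) and with only knockout libraries in the fit (1.46, adjusted p = 0.0870). Without that hippocampus library miR-31-3p passed instead, at 1.56 (adjusted p = 0.0428). MiR-876-3p had 1 count in all libraries together and miR-873b, annotated on the opposite strand of Mir873a, had 0 counts.

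The ratio of the arms of a precursor does not depend on how libraries are scaled. The 5p arm exceeded the 3p arm in 23 of 23 libraries for miR-873a (10.3 to 34.7 times), miR-383 (46.1 to 236 times), miR-139 (39.5 to 162 times) and miR-31 (13.8 to 60.8 times). For miR-335 the 5p arm exceeded the 3p arm in 15 of 23 libraries, with ratios from 0.492 to 2.03. In cortex the 3p arm was the larger in every library, with 5p to 3p ratios of 0.815, 0.774 and 0.709 in wild type libraries and 0.815, 0.936 and 0.492 in knockout libraries. In cerebellum the 5p arm was the larger, with ratios of 1.57, 1.79 and 1.38 for wild type and 1.83, 2.03 and 1.66 for knockout. Hippocampus ratios were 1.18, 1.11 and 0.955 for wild type and 1.22 and 1.01 for knockout. Those of olfactory bulb were 1.36, 1.37 and 0.996 for wild type and 1.09, 1.71 and 1.07 for knockout.

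Across the 11 knockout libraries the log2 ratio of miR-335 differed by -0.96 between cortex and the other regions, a 1.95-fold lower ratio in cortex. All 3 cortex libraries lay below the 8 others (two-sided exact permutation test over libraries, p = 0.00606, the smallest its 165 arrangements allow, Benjamini-Hochberg adjusted over 5 precursors p = 0.0303). The cortex difference of the other 4 precursors did not pass (exact permutation test, adjusted p from 0.439 to 0.842). The call for miR-335 was lost when any of 7 libraries was left out (each cerebellum and each cortex knockout library, and olfactory bulb knockout replicate 2), with adjusted p from 0.0833 to 0.222, and with differences from -1.15 to -0.68 over all 11 single-library omissions. With 2 cortex libraries, the smallest adjusted p the test can give for 1 precursor ranked first is 0.111. Knockout cortex replicate 3, with the lowest library total, had the lowest ratio (0.492). Without it the difference was -0.68 (adjusted exact permutation p = 0.222). It also lay below knockout cortex replicates 1 and 2 for some other miRNAs, such as miR-153-3p (338 against 1373 and 1405 CPM). For others, such as miR-9-5p (72447 against 84151 and 69885 CPM), it did not. The cause was not tested.

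**Figure D3:**
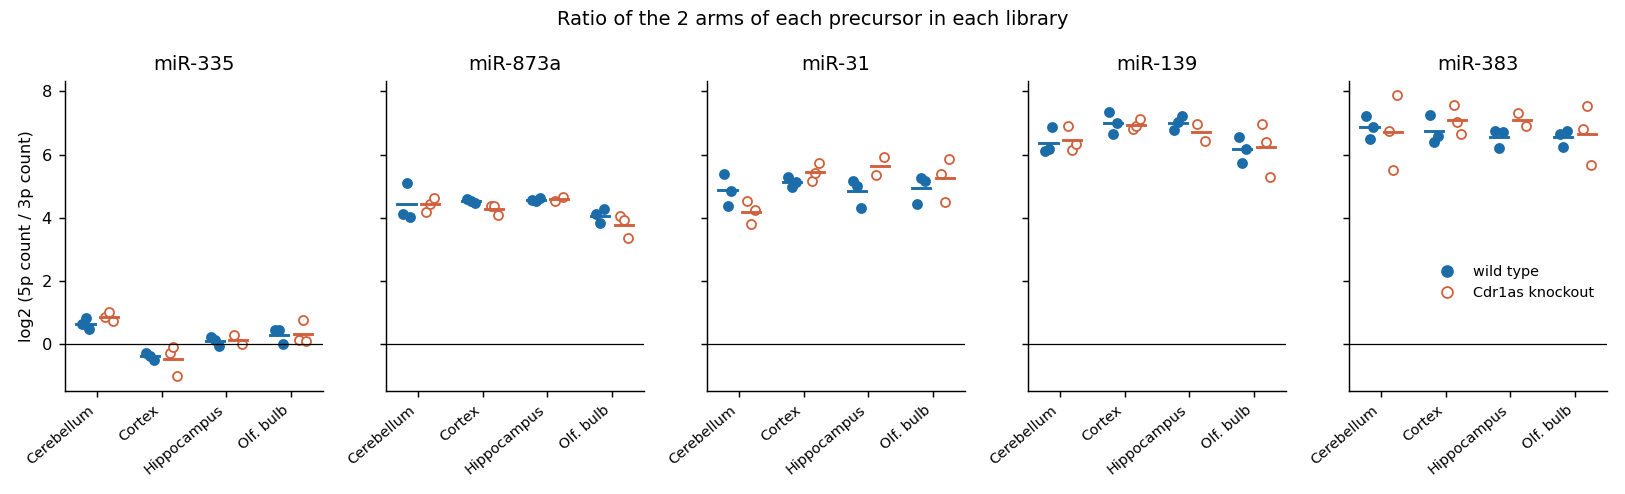
Log2 ratio of 5p to 3p counts, with 0.5 added to each, for the 5 member precursors by brain region; each point is 1 library, filled for wild type and open for knockout, short bars are group means, and the line at 0 marks equal arms. Only miR-335 has points on both sides of the line, below it in all 6 cortex libraries and above it in all 6 cerebellum libraries.

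Knockout and wild type libraries were compared in each region to ask whether loss of Cdr1as changed the members; the wild type libraries also chose the members. No member passed in any region or in the mean of the 4 regional differences, by edgeR or by DESeq2. The share of all miRNAs called by edgeR was 0.149% in cerebellum, 2.09% in cortex, 0% in hippocampus (39 at an unadjusted p under 0.05, and 3 by DESeq2), 0.149% in olfactory bulb and 1.49% for the mean. These values come from a fit without pairing. Same-numbered cerebellum libraries of both genotypes were weakly correlated, but the labels state no pairing. A replicate block within region was run only as an alternative. The cerebellum count was 1 without and 4 with that block, none of them a member. Log2 differences of the members ran from -0.16 to 0.07 in cerebellum, from -0.15 to 0.11 in cortex, from -0.32 to 0.15 in hippocampus and from -0.13 to 0.12 in olfactory bulb. For scale, miR-7a-5p, a miRNA bound by Cdr1as, had a mean difference of -1.07 (SE 0.13, edgeR adjusted p = 1.72e-05).

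The member with the largest mean difference was miR-335-3p, at -0.17 on the log2 scale (SE 0.08, 95% interval -0.33 to -0.01). It was below wild type in 4 of 4 regions, with an unadjusted p of 0.0366 that did not hold after adjustment (edgeR adjusted p = 0.789). In hippocampus its difference was -0.32 (edgeR adjusted p = 0.911) and that of miR-139-5p was -0.26 (edgeR adjusted p = 0.911). MiR-139-5p in hippocampus was the 1 case in which the genotypes of a member did not overlap, where 16.9% of all miRNAs did not overlap. The genotype difference did not differ detectably between regions for any member (edgeR adjusted p = 0.996 for each). The arm ratios of the 5 precursors did not differ detectably between genotypes (exact permutation within regions, adjusted p from 0.680 to 0.760).

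**Figure D4:**
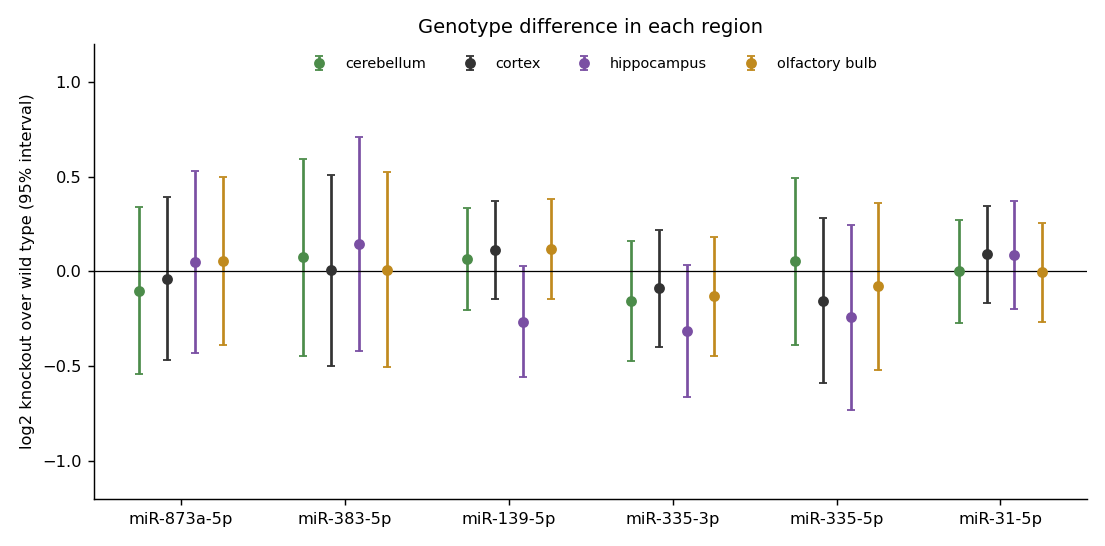
Log2 difference of knockout over wild type for the 6 members in each of the 4 regions; points are edgeR estimates and bars 95% intervals, and the line at 0 marks no difference. All 24 intervals include 0, and the estimates lie between -0.32 and 0.15.

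Wild type and knockout cortex differed in the olfactory bulb and sensory miRNAs, of which 8 of 8 fell in knockout cortex with a median log2 difference of -4.02. Their summed level was 3676 to 6803 CPM in wild type and 141 to 445 CPM in knockout cortex. MiR-96-5p had 0 counts in knockout cortex replicate 1, and each of the other 7 had counts in every cortex library. The part of these miRNAs in the cortex levels of the members was not tested. With those 8 miRNAs left out of the counts, a choice made after seeing the data, still no member passed between genotypes and 6 of 6 were higher in knockout cortex than in the other knockout regions.

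Among the members themselves, Pearson correlations of log2 CPM over the 23 libraries ran from 0.62, between miR-873a-5p and miR-335-5p, to 0.96. These points share regions and library depth, and the values are descriptions. The miRNAs most like each member over the same libraries were its own 3p arm (0.97) and miR-541-5p (0.96) for miR-873a-5p, and miR-1224-5p (0.94) and miR-369-5p (0.90) for miR-383-5p. For miR-139-5p they were miR-376b-3p (0.98) and miR-218-1-3p (0.97), and for miR-31-5p miR-128-1-5p (0.98) and miR-148a-3p (0.98). MiR-335-3p was most like miR-23a-3p (0.93) and miR-1224-5p (0.92), and miR-335-5p most like miR-31-3p (0.89) and miR-29a-3p (0.84).

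A list of 36 other brain miRNAs known for coding host genes was set beside the members. The precursor of 35 was found by name in the annotation, and 34 of them lay in a coding gene on the same strand. MiR-203-3p lay in no gene, and the host of miR-7a-5p was not looked up because its precursor name was not matched. In knockout cortex against the other knockout regions 6 were higher, 10 were lower and 20 did not pass, with a median of -0.01 against -0.03 over all miRNAs tested. Of all miRNAs tested, 23.2% were called higher and 23.2% lower. Of those past the threshold, miR-1224-5p (1.27, host Vwa5b2) and miR-551b-3p (0.98) were the highest, and miR-224-5p (-1.61) and miR-204-5p (-1.58), an abundant miRNA of the choroid plexus, the lowest on the log2 scale. MiR-551b-3p was higher against the geometric mean of the 3 regions but not against each of them, with 40.5, 55.7 and 31.3 CPM in knockout cortex and 104.5 and 89.2 CPM in knockout hippocampus. The low value of miR-224-5p came from olfactory bulb, where it had 50, 51 and 11 counts in the knockout libraries, against 0 to 4 counts in each of the other 8 knockout libraries. The call of miR-224-5p, at an edgeR adjusted p of 0.0492, was lost in 14 of 19 alternatives, 8 of which left out a library, with values from -1.79 to -1.09 over all 19.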

How the data were processed

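Each library has its own table of unnormalised counts for mature miRNAs, deposited by the authors. Per the labels' protocols, total RNA was taken up in TRIZOL and sequenced through the TruSeq Small RNA preparation. The submitters' processing notes name the build mm9. How reads were aligned and counted, the miRNA annotation version and the treatment of reads matching several places were not given in the sources used here. Coordinates and sequences come from GRCm38 and place the genes only.

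Tests ran in edgeR 4.0.16 and limma 3.58.1 under R 4.3.3. The filter filterByExpr, given the 8 groups (minimum count 10, minimum total 15), left 669 of the 1459 with a count. Libraries were scaled by TMM, 1 quasi-likelihood model with 8 group means was fitted to 23 libraries, and p-values were adjusted by Benjamini-Hochberg over 669 miRNAs with a threshold of 0.05. A fold against the other regions is over a geometric mean. Arm ratios are log2 of counts with 0.5 added. Alternatives were RLE, upper quartile and library size scaling, no filter, DESeq2 1.42.0, fits on fewer libraries, replicate blocks and each library left out. Without molecular identifiers, PCR copies cannot be told from separate molecules. Replicates of a group differed by a chi-square per degree of freedom of 28.4 to 242 over 22 pairs, so none was a duplicate. The scripts were tested on simulated counts, where not every changed miRNA was recovered and a call in the wrong direction occurred.

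The named miRNAs are the members, the other arms and locus neighbours, the 2 miRNAs most like each member, rank neighbours in wild type cortex and the largest 2 each way from the hosted list. The members and lists were chosen with earlier results of these data known, knockout libraries included. The rule itself names wild type cortex only and does not state a measure. The main fit and the arm ratio tests did not pair libraries, and replicate blocks were used only as alternatives. Same-numbered cerebellum libraries of both genotypes may be paired, since the deviations of the 3 pairs correlated at 0.116, 0.374 and 0.103, all above 0.1. The labels do not state a pairing, and these 3 values are not independent, because deviations are taken from group means. A set was marked as possibly paired from such correlations only with 3 or more pairs, all above 0.1. No other set met this, and the 2 pairs of knockout hippocampus and olfactory bulb, at 0.239 and 0.165, were too few.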

Additional observations from a re-analysis of the deposited data

How the results depend on the processing

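All 6 members were called higher in knockout cortex against the mean of the other knockout regions under every alternative run, and none was called between genotypes in any. In the knockout cortex comparisons 352 of 360 alternative values kept their call, and the other 8 were all for miR-335-5p: 6 stand with the leave-one-out values in the results, and with only knockout libraries in the fit its difference was 0.91 from hippocampus (edgeR adjusted p = 0.0603) and 0.53 from olfactory bulb (edgeR adjusted p = 0.0866). No knockout cortex difference of a member changed sign in these 360 values. Among 510 genotype values, 75 had the other sign than the main value (lowest edgeR adjusted p = 0.917), as did 5 of 190 arm ratio values (lowest adjusted exact permutation p = 0.697); since neither value passed in any of them, they were not counted as reversals.

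The count of all miRNAs called between genotypes was less stable. Without the filter it was 12 in cerebellum (1 in the main fit), 20 in hippocampus (0), 4 in olfactory bulb (1) and 21 for the mean (10). DESeq2 gave 3 in cerebellum and 3 in hippocampus. The replicate block within region gave 4, 2 and 2 in cerebellum, hippocampus and olfactory bulb, and changed no call of a member. With the libraries of 1 region only, cerebellum and olfactory bulb gave 0 each. Without the 8 sensory miRNAs, cortex gave 5 (14 in the main fit) and the mean 3. Knockout libraries alone gave 48 calls between knockout cortex and hippocampus (85). Leaving out each library gave 0 to 1 in cerebellum (0 without wild type replicate 3), 0 to 8 in hippocampus (8 without wild type replicate 2 and 3 without knockout replicate 2), 0 to 1 in olfactory bulb (0 without wild type replicate 2 or knockout replicate 1), 43 to 79 between knockout cortex and hippocampus (43 without hippocampus knockout replicate 3), and -1.15 to -0.68 for the log2 arm ratio difference of miR-335. The cause of these changes was not tested.

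Scaling by library size only moved the median of all miRNAs to 0.49 in knockout cortex against the other regions, with 302 higher and 42 lower (155 and 155 in the main fit), to 0.53 against cerebellum (307 and 99) and to 0.88 against olfactory bulb (370 and 44). Upper quartile scaling moved it to -0.13 (126 and 167), to -0.32 against cerebellum (163 and 258) and to -0.18 against hippocampus (38 and 53, with 51 and 34 in the main fit), and no filter gave 52 and 57 there. Few counts limit the values of the other arms, miR-876-5p and miR-224-5p.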
